A study of Homo sapiens with 39 samples.

Results

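The genes described here are the core of the YAP and TEAD transcription programme: the co-activators YAP1 and WWTR1 (also called TAZ), the DNA-binding factors TEAD1, TEAD2, TEAD3 and TEAD4, and the target genes CCN1 (CYR61), CCN2 (CTGF), AMOTL2 and ANKRD1. They were chosen by gene symbol, and all 10 were found among the 60671 genes of the gene-level table. Their RNA level was read in all 39 libraries, as TPM, a transcript abundance that is corrected for length and scaled to the same total in each library.

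YAP1 and WWTR1 do not bind DNA themselves. They are held in the cytoplasm and degraded when the LATS kinases of the Hippo pathway phosphorylate them, and in the nucleus they pair with a TEAD factor on the target gene. CCN1 and CCN2 are secreted matricellular proteins, AMOTL2 is a junction protein that binds YAP and restrains it, and ANKRD1 is a nuclear ankyrin repeat protein. In melanoma this programme is known mostly from dedifferentiated, invasive cell states. Because YAP and TAZ are controlled mainly through their localisation, their own RNA level does not report their activity.

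A375 and WM115 are established human melanoma cell lines. The study deleted a region near SOX10, a transcription factor of the melanocyte lineage, described in its design as an enhancer region. In A375 there were 4 libraries of unedited cells (WT), 3 of clone 1.1 and 4 of clone 1.2 with region R1 deleted, and 4 of clone 4.1 and 3 of clone 4.2 with region R4 deleted. In WM115 there were 4 WT libraries, 5 of clone 1.1 and 3 of clone 1.2 with R1 deleted, and 3 of clone 4.1 and 3 of clone 4.2 with R4 deleted. A further 3 WM115 libraries came from clone 1.3, whose title carries an R1-style number while its genotype is given as an R4 deletion, so it was kept apart. Each deletion group is 1 clone, and its libraries share whatever else distinguishes that clone. No treatment, time point or control guide is given in the labels used here. All libraries were made from poly-A selected RNA with a RIN above 8.

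TEAD factors bind the hexamer GGAATG, or CATTCC on the other strand. The 250 bases before the RefSeq transcription start were searched on both strands for it, and 7 of the 10 genes had an entry, with 10 windows in all. CCN1, TEAD1 and TEAD4 had none. At least 1 match stood in 11.9% of the 35116 windows of that length over all genes, at least 2 in 0.94% and at least 3 in 0.0826%. The windows of CCN2 held 3 matches, those of ANKRD1 2, those of AMOTL2 1 and that of YAP1 1, while WWTR1, TEAD2 and TEAD3 had 0. The matches are in capitals in the sequences printed here, from RefSeq on GRCh38.p14. These are given because CCN2, ANKRD1 and AMOTL2 were among the genes that moved together from library to library in A375. CCN1 and TEAD4 moved with them there but had no window to search, and ANKRD1 was not tested in WM115. CCN2 is on the minus strand at chr6:131951374-131951622, and its matches begin 169, 104 and 95 bases before the start.
CCN2: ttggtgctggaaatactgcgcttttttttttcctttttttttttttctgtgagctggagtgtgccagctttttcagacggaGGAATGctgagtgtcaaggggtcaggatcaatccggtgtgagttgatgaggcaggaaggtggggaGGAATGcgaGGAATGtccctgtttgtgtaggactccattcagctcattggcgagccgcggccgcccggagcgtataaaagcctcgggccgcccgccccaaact
For ANKRD1, also on the minus strand, the bases before the GENCODE 29 start (chr10:90921277-90921337) hold the match 220 bases before the RefSeq start. The match at 128 bases lies inside exon 1 of the GENCODE 29 model, and a stretch of 30 bases around it (chr10:90921198-90921227) is shown.
ANKRD1 upstream: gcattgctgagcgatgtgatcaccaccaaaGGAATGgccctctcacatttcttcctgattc
ANKRD1 exon 1: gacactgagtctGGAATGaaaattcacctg
For AMOTL2, on the minus strand, the match lies 69 bases before the start of 1 of its 2 RefSeq windows, inside exon 1 of transcript AMOTL2-201 in GENCODE 29 (chr3:134374499-134374528).
AMOTL2: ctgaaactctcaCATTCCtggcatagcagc
By GENCODE 29 on GRCh38, the targets lie at chr1:85580761-85583962 (CCN1, plus strand), chr6:131948176-131951373 (CCN2), chr3:134355874-134375479 (AMOTL2) and chr10:90912096-90921276 (ANKRD1). WWTR1 lies at chr3:149517235-149736714 and TEAD3 at chr6:35473597-35497076, both on the minus strand. The AP-1 motif TGANTCA was found in the ANKRD1 window and in no other of these genes (6.57% of all windows hold it). The CArG box of serum response factor was found in none of them (1.16% of all windows). A match is a description of the letters, not of binding.

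SOX10 itself ran from 630 to 706 TPM in A375 WT and 449 to 553 TPM in WM115 WT. Its medians were 491 and 446 TPM in A375 clones 1.1 and 1.2, 760.1 and 541 TPM in A375 clones 4.1 and 4.2, 405 and 272 TPM in WM115 clones 1.1 and 1.2, 389.6 and 438 TPM in WM115 clones 4.1 and 4.2, and 465 TPM in clone 1.3. Read depth could not be recovered from TPM, so no counting error is given. Mitochondrial transcripts took 0.968% to 4.92% of TPM in A375 and 4.71% to 19.4% in WM115. Ribosomal protein genes took 11.1% to 12.8% in WM115 WT and 10.6% in library 3 of clone 1.3, against 15.06% to 17.4% in the other WM115 clone libraries. In library 3 of WM115 clone 1.2, SOX10 had 9.56 TPM and 12 melanoma markers summed to 94.6 TPM, against at least 272 TPM and 1132 TPM in the other WM115 libraries, so results on that clone are given with and without it. TYR, DCT, MLANA and TYRP1, all of pigment synthesis or the melanosome, stayed under 1 TPM in every A375 library. PMEL, also of the melanosome, reached 2.54 TPM. Further genes of the melanoma list were present in A375. Their medians were 466.5 TPM for S100A1, 237 for ERBB3, 120 for PRAME, 38.2 for S100B, 15.7 for MITF and 11.3 for PAX3. PTPRC, CD3E, EPCAM and CDH1, which mark blood and epithelial cells, stayed at or under 0.483 TPM in both lines. Other markers on the same lists were present: CD68, a lysosomal protein of macrophages, at 18.2 to 165 TPM in A375 and 225 to 757 TPM in WM115, and the keratin genes KRT18 at 224 to 519 and 43.6 to 214 TPM, KRT8 at 18.1 to 107 and 8.27 to 26.2 TPM, and KRT14 at up to 30.4 and 3.65 TPM. Sums of 4 endothelial markers ran from 0.423 to 2.88 TPM in A375 and from 2.24 to 16.3 TPM in WM115. In bulk RNA, fewer cells of a kind and less RNA per cell cannot be told apart.

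WWTR1 was the most abundant of the 10 genes in both lines. It averaged 562 ± 159 TPM (SD, n = 18) over the A375 libraries and 222 ± 87.2 TPM (SD, n = 21) over WM115, against 94.6 ± 12.8 and 59.1 ± 11.7 TPM for YAP1. Among the DNA-binding factors, TEAD4, TEAD1 and TEAD2 averaged 41.4, 34.0 and 22.3 TPM in A375, and TEAD1, TEAD4 and TEAD2 29.9, 28.9 and 17.3 TPM in WM115. TEAD3 was the lowest of the factors in both lines, at 7.55 ± 1.96 TPM (SD, n = 18) in A375 and 10.98 ± 2.92 TPM (SD, n = 21) in WM115. CCN1 ran from 22.02 to 274 TPM in A375 and from 2.62 to 208 TPM in WM115. CCN2 ran from 3.50 to 96.4 TPM and from 4.45 to 63.0 TPM, and AMOTL2 from 9.48 to 92.2 TPM and from 7.99 to 38.9 TPM. ANKRD1 reached 16.1 TPM in A375 and stayed between 0 and 0.931 TPM in WM115, where it passed no filter and was not tested.

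**Figure D1:**
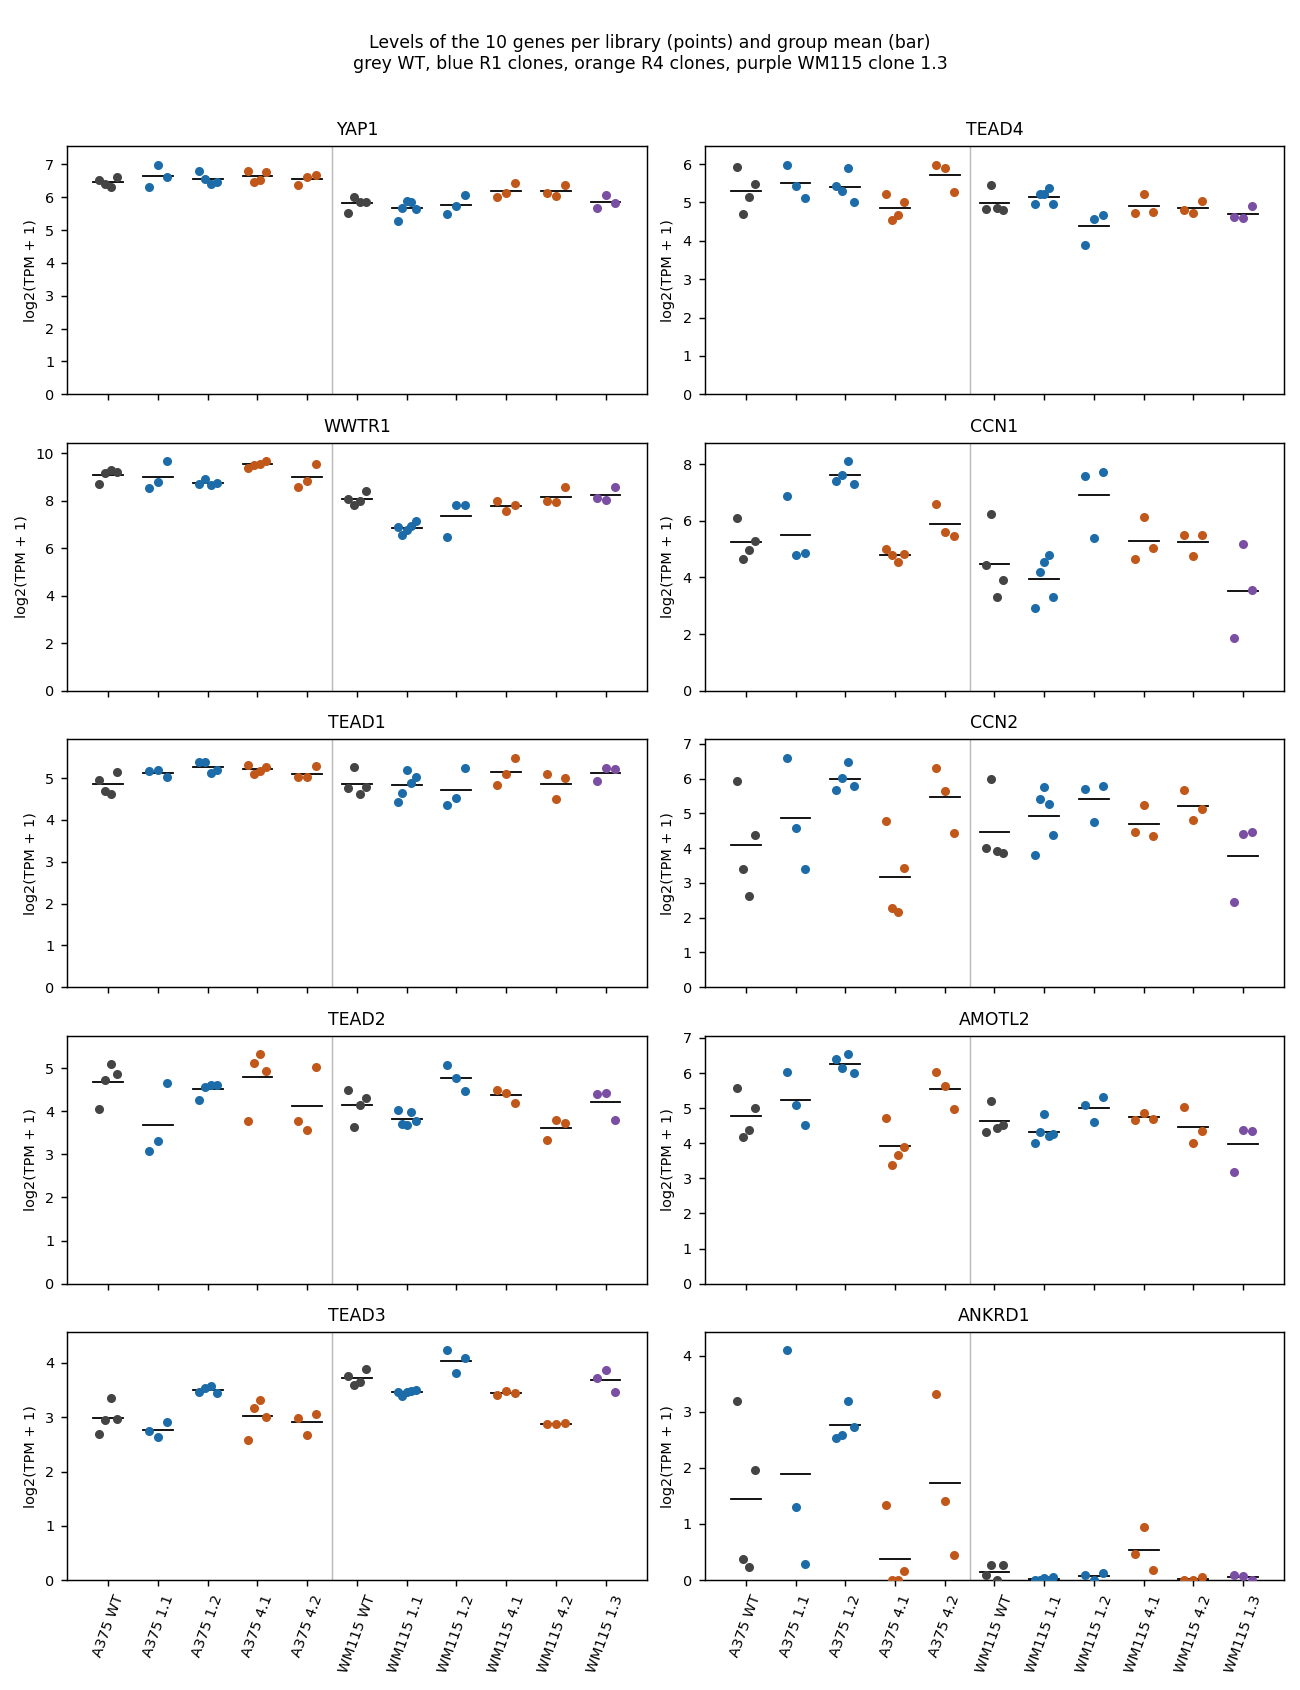
RNA level of each of the 10 genes on a log2(TPM + 1) axis, 1 panel per gene, with 1 point per library and a bar at the mean of each of the 11 groups. WWTR1 is the highest and ANKRD1 the lowest in both lines, and CCN1, CCN2 and AMOTL2 spread more within most groups than YAP1 and TEAD1 do.

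Differences were tested with limma on log2(TPM + 1), with p-values adjusted by the Benjamini-Hochberg method over all genes tested, and a gene was called at an adjusted p under 0.05. Differences in the text are on that log2 scale, which understates the change of low genes. Between the WT libraries of the lines, 3 of 9 members were called against 47.9% of all genes. Of the A375 clones against WT, clone 1.2 had 2 of 10 called (8.53% of all genes), while limma called 0 of 10 in clone 1.1 (1.04%), clone 4.1 (1.31%) and clone 4.2 (0.557%), with 1, 2 and 0 members at an unadjusted p under 0.05. Of the WM115 clones, limma called 1 of 9 in clone 1.1 (22% of all genes), 3 in clone 1.2 (22.6%) and 1 in clone 4.2 (20.3%). It called 0 of 9 in clone 4.1 (24.2%) and clone 1.3 (1.06%), with 2 and 1 at an unadjusted p under 0.05. The members were thus called no more often than the background in any WM115 clone except clone 1.2, where 3 of 9 stood beside 22.6%.

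The co-activators differed between the unedited lines. YAP1 had 96.1, 78.9, 83.4 and 91.2 TPM in the A375 WT libraries and 56.3, 57.5, 63.7 and 44.9 TPM in WM115 WT. All 4 A375 libraries lay above all 4 of WM115, with a difference of 0.65 (SE 0.14, limma adjusted p 0.0039). WWTR1 had 592, 628, 573 and 413 TPM in A375 WT and 344, 253, 222 and 265 TPM in WM115 WT, again without overlap. It was 2.03-fold higher in A375, a difference of 1.02 (SE 0.18, limma adjusted p 0.00138). In this comparison 43.9% of all genes had groups that did not overlap. TEAD3 went the other way: its 6.86, 9.21, 6.70 and 5.47 TPM in A375 WT lay below its 13.9, 11.6, 11.002 and 12.5 TPM in WM115 WT, at -0.73 (SE 0.17, limma adjusted p 0.0054). The 326 tested genes within 10 Mb of TEAD3 on chromosome 6 had a median difference of -0.73 and all genes one of -0.04, so TEAD3 stood at the level of its neighbourhood. Copy number was not measured. The other 6 members tested did not pass. For TEAD2 the difference of 0.54 (adjusted p 0.107) became 0.75 (0.0189) without A375 WT library 4, and for CCN1 that of 0.79 (0.279) became 1.38 (0.0146) without WM115 WT library 3.

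Within the lines, WWTR1 fell in 1 clone, WM115 clone 1.1. Its 5 libraries had 142, 121, 109, 92.4 and 116 TPM against 344, 253, 222 and 265 TPM in WT. Every clone library was below every WT library. In this comparison 23.6% of all genes had groups that did not overlap, in either direction. The fold was 0.432 of WT, a difference of -1.21 (SE 0.23, limma adjusted p 0.00141), and it was called in all 20 alternative analyses, with adjusted p-values from 0.000599 to 0.0376. The 920 tested genes of chromosome 3 had a median difference of -0.32 in this clone, the 74 within 10 Mb of WWTR1 one of -0.43 and all genes one of -0.12. Clone 1.2, with the same region deleted, had 227, 223 and 88.2 TPM of WWTR1, with libraries 1 and 2 at the level of the lower WT libraries and library 3, the library with little SOX10, below all of them. Its difference was -0.70 (adjusted p 0.0646), and -0.25 (0.502) without that library, while without library 1 or 2 it was -0.93 (0.0268) or -0.91 (0.0292).

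WWTR1 in the R4 clones of WM115 and in clone 1.3 overlapped WT, at 225, 186 and 251 TPM in clone 4.1, 376, 248 and 257 TPM in clone 4.2, and 386, 258 and 277 TPM in clone 1.3. In A375, clone 4.1 had 809, 754, 733 and 671 TPM, all above WT, at a difference of 0.44 (SE 0.23, adjusted p 0.54). Here 7.12% of all genes had no overlap, in either direction. Clone 1.2 had 426, 402, 483 and 419 TPM. Clones 1.1 and 4.2 ranged from 372 to 812 TPM and from 381 to 748 TPM, so that single libraries of these clones lay on both sides of WT.

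YAP1 moved little. In A375 its group means ran from 87.4 ± 7.72 TPM in WT (SD, n = 4) to 101 ± 24.1 TPM in clone 1.1 (SD, n = 3), and all neighbouring groups in that order overlapped. In WM115 the R4 clones were highest, with 84.7, 68.5 and 63.9 TPM in clone 4.1 and 82.0, 64.6 and 68.5 TPM in clone 4.2. These lay just above the highest WT library, at 63.7 TPM, as the groups of 36.9% and 32.1% of all genes did not overlap in these comparisons. The differences of YAP1 were 0.37 and 0.36 (SE 0.17 for both), with limma adjusted p-values of 0.113 and 0.133. Scaling the libraries by median-of-ratios factors gave 0.51 (adjusted p 0.0288) and 0.49 (0.0404), and quantile normalization 0.44 (0.0369) and 0.43 (0.0464), so whether YAP1 passed rested on the scaling. All 4 WM115 WT libraries had a mitochondrial share above 7.5%, against 1 of 3 libraries of clone 4.1 and 2 of 3 of clone 4.2, and YAP1 deviations were lower where that share was higher (r = -0.702, rho = -0.657, n = 21, permutation adjusted p 0.00309 and 0.016). The part of this share in the YAP1 values was not tested.

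Of the DNA-binding factors, TEAD3 fell in WM115 clone 4.2. Its libraries there had 6.41, 6.34 and 6.32 TPM, against 13.9, 11.6, 11.002 and 12.5 TPM in WT. The clone lay at 0.557 of WT, a difference of -0.84 (SE 0.12, limma adjusted p 0.000155), with no overlap. It was called in 17 of 18 alternatives by the adjusted p, the exception being the fit by replicate number (0.0687). The 358 tested genes within 10 Mb of TEAD3 had a median of -0.36 in this clone, the whole of chromosome 6 one of -0.25 and all genes one of -0.10. The other R4 clone, 4.1, had 9.93, 10.2 and 9.60 TPM of TEAD3, also below every WT library, with a difference of -0.27 (adjusted p 0.102). R1 clone 1.1, with 10.3, 10.1, 10.007, 9.53 and 10.02 TPM, was also below every WT library, at -0.26 (0.0808). Of all genes, 32.1% had no overlap with WT in clone 4.2, 36.9% in clone 4.1 and 23.6% in clone 1.1, in either direction.

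The R4 clones of WM115 differed from each other in 2 of 9 members, beside 6.75% of all genes. TEAD3 was higher in clone 4.1 by 0.57 (SE 0.13, limma adjusted p 0.0103), and TEAD2, with 17.4, 20.6 and 21.7 TPM against 12.2, 12.9 and 9.16 TPM in clone 4.2, by 0.76 (SE 0.21, adjusted p 0.0393). In both genes all 3 libraries of clone 4.1 lay above all 3 of clone 4.2, as in either direction for 27.7% of all genes. The TEAD2 call was lost whichever of the 6 libraries was left out, at adjusted p-values from 0.0636 without library 2 of clone 4.2 to 0.145 without library 3 of clone 4.2. TEAD2 in clone 4.2 against WT had a difference of -0.52 (adjusted p 0.0715), which became -0.70 (0.0132) without WT library 3. The same library decided TEAD2 in clone 1.1, with -0.31 (0.217) with it and -0.48 (0.0454) without it.

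WM115 clone 1.2 was the only WM115 clone with more than 1 member called against WT. TEAD2 had 21.3, 26.3 and 32.8 TPM there and 18.7, 16.8, 11.4 and 21.5 TPM in WT, a difference of 0.63 (SE 0.20, limma adjusted p 0.0305). TEAD4 had 24.6, 22.9 and 13.7 TPM, below all WT libraries at 26.9, 27.7, 42.6 and 27.7 TPM, a difference of -0.61 (SE 0.20, adjusted p 0.0331), where 28.3% of all genes had groups that did not overlap. CCN1 had 208, 40.8 and 190.1 TPM against 13.98, 8.82, 75.3 and 20.5 TPM, a difference of 2.42 (SE 0.75, adjusted p 0.0279). The clone and WT overlapped for TEAD2 and CCN1, through the lowest clone library and the highest WT library. Of the sums of markers of other cells, the epithelial sum lay above WT in this clone, and the immune sum overlapped WT. The epithelial sum ran from 184 to 240.2 TPM, against 72.02 to 141 TPM in WT, and the immune sum, nearly all CD68, from 420.2 to 757 TPM against 336 to 445 TPM. The fibroblast sum, at 11.6 to 37.1 TPM against 6.54 to 30.6 TPM, overlapped WT. The part of these markers in the values of this clone was not tested. All 3 calls depended on library 3 of the clone: without it the differences were 0.48 for TEAD2 (adjusted p 0.197), -0.35 for TEAD4 (0.27) and 2.08 for CCN1 (0.154), and 5.61% of all genes were called. The TEAD2 call was also lost without library 2 of the clone (0.0555) or WT library 2 (0.059) or 3 (0.0845). The TEAD4 call was lost without WT library 3 (-0.45, 0.0921). The CCN1 call was lost without library 1 of the clone (0.092) or WT library 1 (0.0685), 2 (0.0854) or 4 (0.0525). CCN2 (0.97, adjusted p 0.225) passed without WT library 3, at 1.48 (0.0468). TEAD3 (0.32, 0.0586) passed without library 2 of the clone, at 0.44 (0.0171), or WT library 1, at 0.38 (0.0484).

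Between the R1 clones of WM115, 4 of 9 members were called, beside 35.5% of all genes. TEAD3 was lower in clone 1.1, at -0.59 (SE 0.11, limma adjusted p 0.000802), TEAD2 at -0.95 (SE 0.19, 0.0011) and CCN1 at -2.94 (SE 0.72, 0.00418), and TEAD4 was higher, at 0.77 (SE 0.19, 0.00401). For all 4 genes the libraries of the clones did not overlap, as for 33.3% of all genes. CCN1 had 8.99, 26.9, 22.4, 17.2 and 6.55 TPM in clone 1.1, each below the lowest library of clone 1.2. Without library 3 of clone 1.2, TEAD3, TEAD2 and CCN1 were still called (adjusted p 0.0107, 0.0139 and 0.0346). TEAD4 was then not called (0.52, 0.0527), while WWTR1, at -0.51 (0.123) with all libraries, was (-0.96, 0.0031). AMOTL2, at -0.68 (0.0712), passed without library 2 of clone 1.2 (-0.87, 0.0423) or library 3 of clone 1.1 (-0.81, 0.0413). WWTR1 and AMOTL2 both lie on chromosome 3, whose 920 tested genes had a median difference of -0.51 with all libraries. The 74 within 10 Mb of WWTR1 had one of -0.59, the 115 within 10 Mb of AMOTL2 one of -0.56 and all genes one of -0.09.

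**Figure D2:**
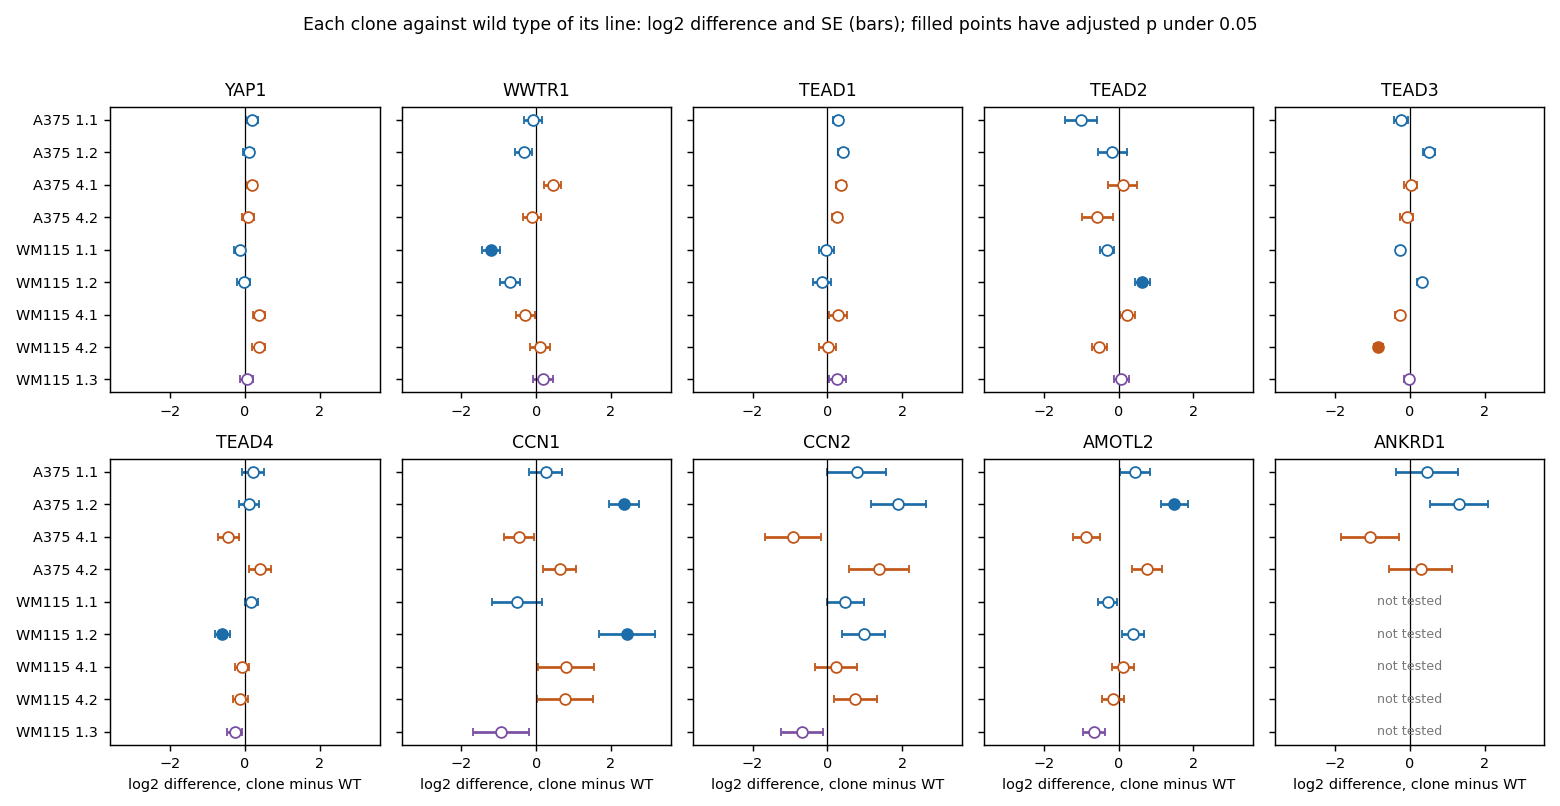
Difference of each clone from WT of its line for the 10 genes, in log2(TPM + 1), with bars of 1 SE from limma, R1 clones in blue, R4 clones in orange and clone 1.3 in purple, and filled points where the adjusted p was under 0.05. CCN1 stands highest in clone 1.2 of both lines, at 2.35 in A375 and 2.42 in WM115, WWTR1 lowest in WM115 clone 1.1, at -1.21, and most other points are open.

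In A375, CCN1, CCN2 and AMOTL2 had their highest group means in R1 clone 1.2, while ANKRD1 averaged 5.92 TPM in clone 1.1 and 5.89 TPM in clone 1.2. CCN1 had 155, 274, 195 and 169 TPM there against 38.2, 30.3, 24.3 and 67.7 TPM in WT. All 4 clone libraries lay above all 4 WT libraries, and CCN1 rose 5.09-fold, a difference of 2.35 (SE 0.40, limma adjusted p 0.00116). AMOTL2 had 62.5, 92.2, 70.4 and 82.8 TPM against 31.1, 19.7, 17.0 and 46.4 TPM, again without overlap, and rose 2.81-fold, a difference of 1.49 (SE 0.36, adjusted p 0.0154). TEAD3, the third member without overlap, had 9.86, 10.99, 10.7 and 10.1 TPM against 6.86, 9.21, 6.70 and 5.47 TPM, at 0.52 (SE 0.17, adjusted p 0.072), where groups did not overlap for 13.8% of all genes. CCN2 had 53.7, 87.7, 63.5 and 50.1 TPM against 19.9, 5.18, 9.48 and 60.6 TPM, so that WT library 4 reached the clone, and its difference of 1.90 (SE 0.74) did not pass (adjusted p 0.138). ANKRD1, at 4.79 to 8.12 TPM against 0.168 to 8.10 TPM, had a difference of 1.32 (adjusted p 0.352).

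These values depended in part on single WT libraries. The AMOTL2 call was lost without WT library 3, at 1.29 (adjusted p 0.0648), and the CCN2 difference passed without WT library 4, at 2.52 (0.0419). TEAD3 passed without WT library 2, at 0.64 (0.0274). TEAD1, with 35.8, 33.9, 41.0 and 40.8 TPM against 34.3, 23.6, 25.0 and 30.1 TPM (0.42, adjusted p 0.0515), passed without WT library 1, at 0.52 (0.0254), or without library 2 of the clone, at 0.47 (0.0449). Within the A375 libraries with a mitochondrial share under 2.5%, 2 of the clone and 3 of WT, CCN1 differed by 2.24 (0.121) and AMOTL2 by 1.28 (0.456). Of the sums of markers of other cells, the fibroblast and epithelial sums lay above WT in this clone, and the immune sum overlapped WT. A sum of 7 fibroblast markers ran from 16.2 to 21.8 TPM in it and from 6.95 to 14.3 TPM in WT, with COL3A1 and THY1 at or under 0.329 TPM in every A375 library. A sum of 6 epithelial markers, nearly all of it KRT18 and KRT8, ran from 469 to 629 TPM and from 257 to 404 TPM, with EPCAM and CDH1 at or under 0.397 TPM. The sum of 3 immune markers, nearly all of it CD68, ran from 87.3 to 165 TPM and from 20.6 to 119.8 TPM. The part of these markers in the CCN1 and AMOTL2 values was not tested.

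The other R1 clone of A375 had 0 members called. Against WT, groups did not overlap for 0 of 10 members in clone 1.1 (7.41% of all genes) and 0 of 10 in clone 4.2 (6.52%), and for 0 of 9 in WM115 clone 1.3 (11.5%). A375 clone 1.1 had 28.4, 26.5 and 116 TPM of CCN1, 9.61, 22.9 and 96.4 TPM of CCN2 and 22.04, 33.0 and 64.9 TPM of AMOTL2. Libraries 1 and 2 lay within the WT range and library 3 above it for each of these genes. Against clone 1.2, 2 of 10 members were called, beside 13.2% of all genes: CCN1 at -2.10 (SE 0.44, limma adjusted p 0.00464) and TEAD3, with 6.56, 5.21 and 5.67 TPM in clone 1.1, at -0.74 (SE 0.18, 0.0133). Groups of both genes did not overlap, as for 22.9% of all genes. The TEAD3 call was lost without library 2 of clone 1.1 (-0.68, 0.0699), and 2 further members passed with a library left out, AMOTL2 without library 3 of clone 1.1 (-1.46, 0.0306) and TEAD2 without library 1 (-1.32, 0.0413). TEAD2 in clone 1.1 itself had 24.1, 8.92 and 7.39 TPM against 28.0, 33.2, 25.6 and 15.5 TPM in WT, a difference of -1.01 (SE 0.42, adjusted p 0.411) that rested on libraries 2 and 3.

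The R4 clones of A375 had mean levels of the targets on opposite sides of the WT mean, and differed from each other in AMOTL2. AMOTL2 had 13.9, 11.6, 9.48 and 25.5 TPM in clone 4.1 and 30.2, 48.1 and 64.7 TPM in clone 4.2, without overlap, and differed by -1.62 (SE 0.39, limma adjusted p 0.0291). It was the 1 member of 10 called between these clones, beside 3.95% of all genes. CCN1 and TEAD4 also lay lower in every library of clone 4.1, at -1.10 (adjusted p 0.163) and -0.85 (0.114), and 17.3% of all genes had no overlap here. CCN2 differed by -2.30 (0.115), and by -2.84 (0.0458) without library 4 of clone 4.1. The AMOTL2 call was lost without library 1 (0.0681), 2 (0.0849) or 3 (0.0947) of clone 4.1 and without library 2 (0.117) or 3 (0.188) of clone 4.2.

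For A375 clone 4.1 and WT, libraries with the same replicate number deviated from their groups together, so the comparison was also made within numbers. Limma then called 5 of 10 members, beside 11.7% of all genes, where the unpaired fit called 0 of 10. The pairs were found in these same values and are not in the labels, so p-values of the paired fit may be too small. AMOTL2, CCN2, TEAD4 and WWTR1 also deviated together across A375 libraries, WWTR1 in the opposite direction, so their calls are not separate results. AMOTL2 was lower in the clone in 4 of 4 pairs, at -0.86 (SE 0.09, adjusted p 0.00363), and CCN2 in 4 of 4, at -0.92 (SE 0.13, 0.00888). CCN2 had 9.79, 3.50, 3.84 and 26.7 TPM in clone 4.1, and its own WT partners 19.9, 5.18, 9.48 and 60.6 TPM. Library 4 was the highest in both groups, and each clone library lay below its partner while the groups overlapped. TEAD4 was lower in 4 of 4 pairs (-0.44, SE 0.10, 0.0342), with 31.5, 24.3, 22.4 and 36.6 TPM against 43.5, 34.1, 25.0 and 60.2 TPM. WWTR1 was higher in 4 of 4 (0.44, SE 0.08, 0.0196) and so was TEAD1 (0.36, SE 0.09, 0.0473). CCN1 (-0.47, adjusted p 0.137) and ANKRD1 (-1.06, 0.0758), with 0.122, 0, 0 and 1.53 TPM in the clone, did not pass, nor did YAP1, TEAD2 and TEAD3.

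**Figure D3:**
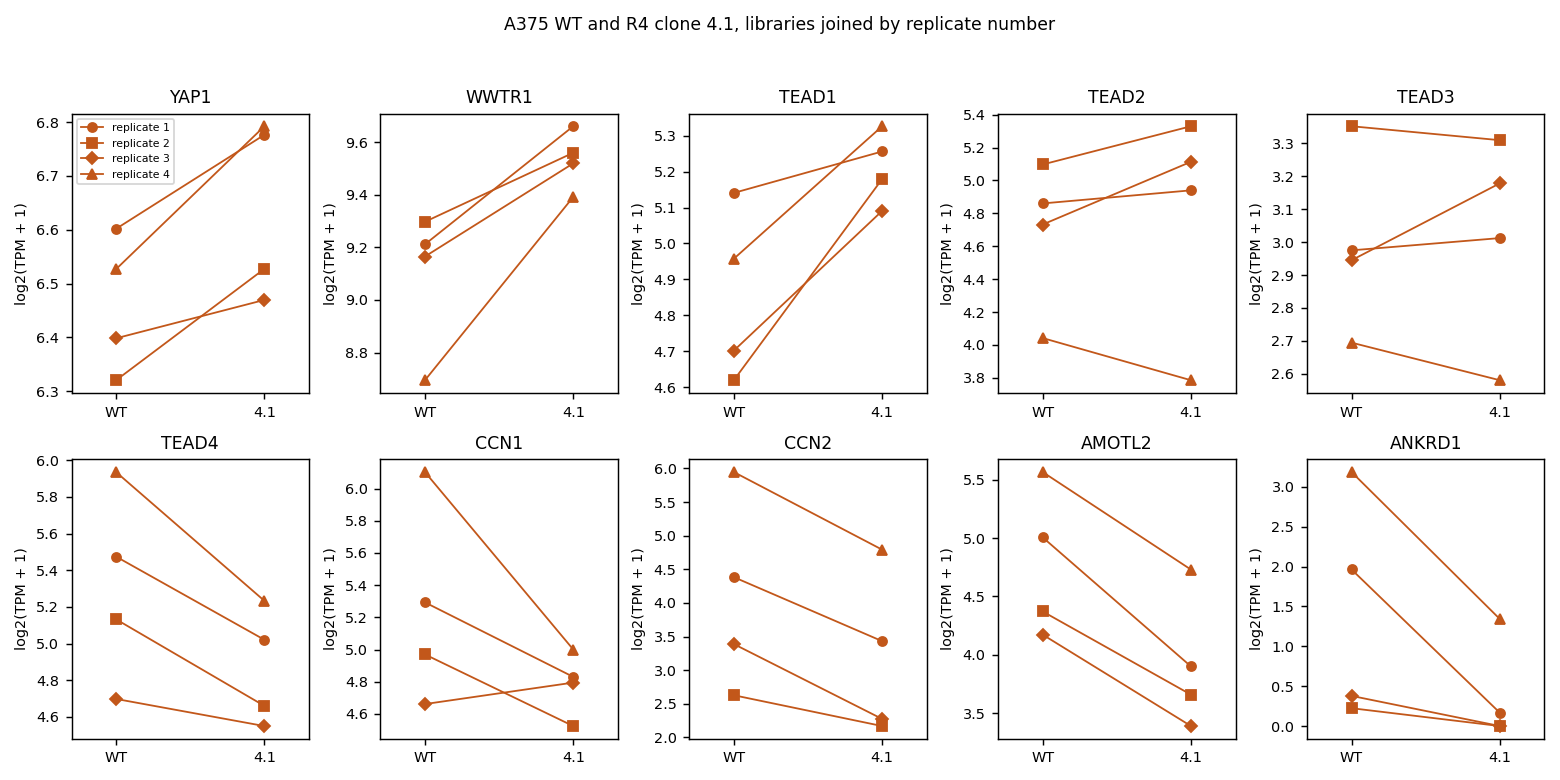
A375 WT and R4 clone 4.1, with the libraries of the same replicate number joined, in log2(TPM + 1). AMOTL2, CCN2 and TEAD4 fall and WWTR1 and TEAD1 rise along all 4 lines, and library 4 is the highest for CCN2 and the lowest for WWTR1 in both groups.

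With the clones of both lines as the replicates, no deletion effect on the members was detected. Limma called 0 of 9 members and 0% of all genes for R1 against WT, R4 against WT, R1 against R4 and the difference of the region effect between the lines, with 1, 0, 1 and 0 members at an unadjusted p under 0.05. That member was WWTR1, at -0.58 for R1 against WT (SE 0.25, unadjusted p 0.0415, adjusted p 0.9998) and at -0.62 for R1 against R4 (SE 0.20, 0.0125 and 0.967). CCN1, at 1.13 for R1 against WT, had an SE of 0.78.

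CCN2, AMOTL2 and TEAD4 also spread widely between libraries of the same group, and they did so together. In all 5 A375 groups, the library with the most CCN2 was also the one with the most CCN1, AMOTL2, ANKRD1 and TEAD4 and the one with the least WWTR1. It was library 4 of WT, library 3 of clone 1.1, library 2 of clone 1.2, library 4 of clone 4.1 and library 3 of clone 4.2. Libraries of WT and clone 4.1, and of clones 1.1 and 4.2, deviate together by number, so the 5 groups are not 5 separate observations. In A375 WT, CCN2 had 60.6 TPM in that library and 5.18 to 19.9 TPM in the others. In clone 1.1 it had 96.4 TPM there, and 9.61 and 22.9 TPM in the others. In WM115 the library with the most CCN2 had the most CCN1 and AMOTL2 in 3 of 6 groups, the least WWTR1 in 2 of 6 and the least TEAD2 in 5 of 6.

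These shared deviations were measured as correlations of each library's deviation from its group mean in log2(TPM + 1), with p-values from 100000 permutations within groups, adjusted over 119 relations, 81 of them between members. The relations were noticed in the values before they were tested. Libraries of A375 WT and clone 4.1, and of clones 1.1 and 4.2, deviate together by number, so the 18 A375 libraries are not independent and their p-values are too small. The adjusted p of r is given first and that of rho second. In A375, CCN2 and AMOTL2 had r = 0.953 and rho = 0.909 (n = 18, permutation adjusted p 0.00184 and 0.00405), with r = 0.927 without the 2 libraries farthest from the median and 0.976 within the 12 libraries of low mitochondrial share. TEAD4 and AMOTL2 had r = 0.929 and rho = 0.938 (n = 18, permutation adjusted p 0.00119 and 0.00119, r = 0.912 without 2 libraries, 0.928 at low share). CCN2 went with ANKRD1 at r = 0.925 and rho = 0.938 (permutation adjusted p 0.00159 and 0.00119) and with CCN1 at 0.813 and 0.802 (0.00256 and 0.00416). Of the 45 relations among members in A375, 13 were positive and 9 negative at an adjusted p under 0.05.

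WWTR1 and TEAD2 moved against CCN2 and AMOTL2 in A375, while their relations to CCN1 did not pass (r = -0.671 and -0.520, rho = -0.496 and -0.465, permutation adjusted p 0.157 and 0.181 for r, 0.22 and 0.217 for rho). WWTR1 and CCN2 had r = -0.760 and rho = -0.721 (n = 18, permutation adjusted p 0.00843 and 0.0212), with r = -0.725 without 2 libraries and -0.846 at low mitochondrial share. TEAD2 and CCN2 had r = -0.834 and rho = -0.777 (n = 18, permutation adjusted p 0.00501 and 0.0178, r = -0.767 and -0.940). WWTR1 and TEAD2 moved together at r = 0.849 and rho = 0.829 (permutation adjusted p 0.0106 and 0.0178), and TEAD2 and TEAD3 at 0.812 and 0.808 (0.00184 and 0.00405). The A375 deviations also went with the share of ribosomal protein genes, at r = -0.783 and rho = -0.738 for CCN2 (n = 18, permutation adjusted p 0.0106 and 0.0212) and r = 0.821 and rho = 0.686 for TEAD3 (0.00714 and 0.0327). Their r was -0.710 for AMOTL2, -0.682 for TEAD4 and 0.721 for TEAD2 (permutation adjusted p 0.0217, 0.0275 and 0.00198). The part of that share in the relations was not tested.

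In WM115 the relation among the targets was found again and that with WWTR1 was not detected. CCN1 and CCN2 had r = 0.891 and rho = 0.855 (n = 21, permutation adjusted p 0.00184 and 0.00405), with r = 0.831 without 2 libraries, 0.894 within the libraries of high mitochondrial share and 0.892 without library 3 of clone 1.2. CCN2 and AMOTL2 had r = 0.878 and rho = 0.864 (n = 21, permutation adjusted p 0.00159 and 0.00405, r = 0.816, 0.899 and 0.878). WWTR1 and CCN2 had r = -0.277 (n = 21, permutation adjusted p 0.359). TEAD4 and CCN2 had r = 0.534 and rho = 0.570 (n = 21, permutation adjusted p 0.0677 and 0.0454), so that rho passed and r did not, and r was 0.753 without library 3 of clone 1.2. YAP1 and TEAD1 moved together in both lines. Their r was 0.603 and rho 0.662 in A375 (n = 18, permutation adjusted p 0.0187 and 0.02, r = 0.775 without 2 libraries and 0.623 at low share). It was 0.799 and 0.765 in WM115 (n = 21, permutation adjusted p 0.00342 and 0.00748, r = 0.725 without 2 libraries, 0.743 at high share and 0.768 without library 3 of clone 1.2). In WM115 both were lower where the mitochondrial share was higher, at r = -0.702 for YAP1 and -0.631 for TEAD1 (permutation adjusted p 0.00309 and 0.0104), whose part in their relation was not tested. CCN1 also went with that share, at r = -0.564 and rho = -0.574 (n = 21, permutation adjusted p 0.0465 and 0.0454), and its part in the relation of CCN1 to CCN2 was not tested. The r of CCN1 with the share was -0.387 without 2 libraries and -0.621 at high share. Of the 36 relations in WM115, 6 were positive and 2 negative at an adjusted p under 0.05. TEAD1 also went with AMOTL2 at r = 0.676 and rho = 0.696 (permutation adjusted p 0.00441 and 0.0137) and with CCN2 at 0.564 and 0.570 (0.0362 and 0.0407). TEAD2 went against TEAD1 at r = -0.699 and rho = -0.682 (permutation adjusted p 0.00779 and 0.0173). Against AMOTL2 it had -0.659 and -0.579 (0.0446 and 0.0811), so that r passed and rho did not. The part of the mitochondrial share in these was not tested.

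**Figure D4:**
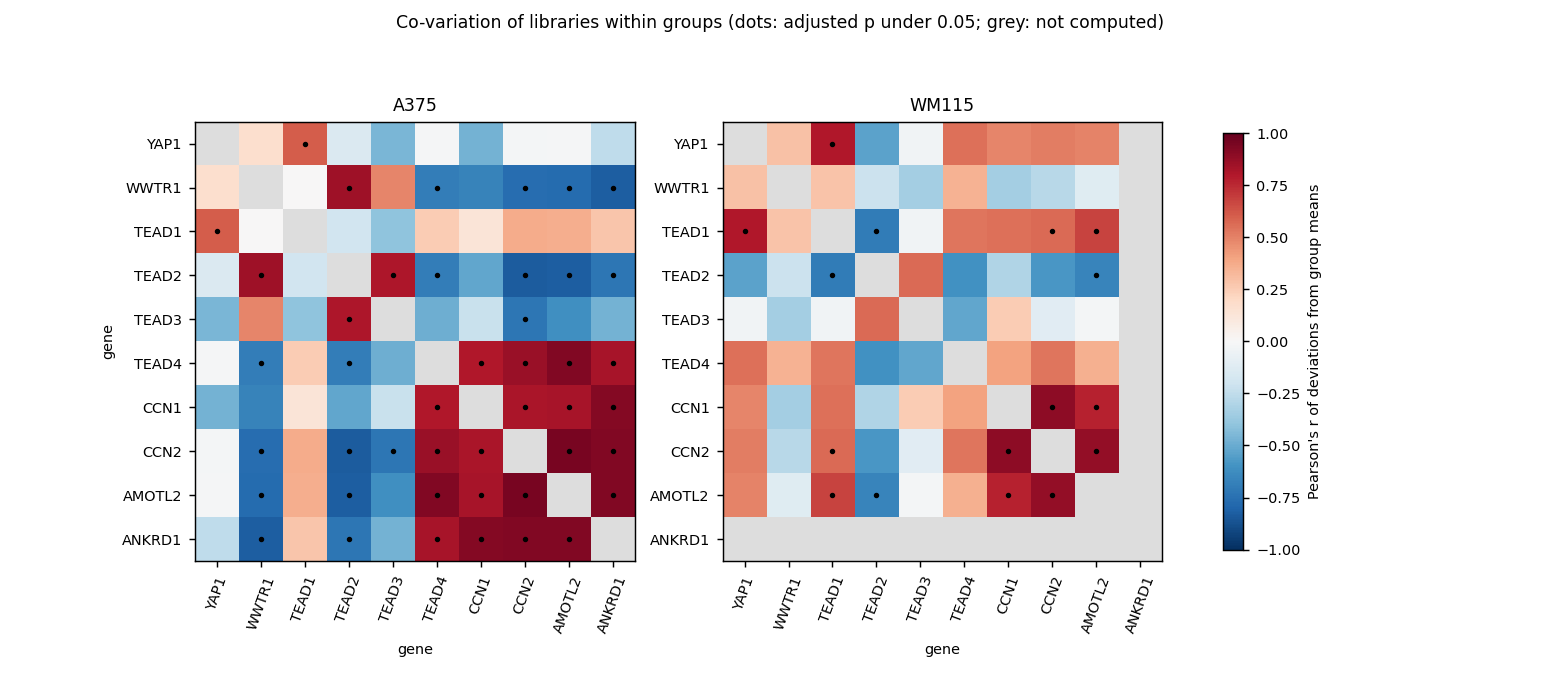
Pearson correlation of library deviations from the group mean between pairs of members in A375 (n = 18) and WM115 (n = 21), with red for positive and blue for negative r, dots at a permutation adjusted p under 0.05 and grey where none was computed. In A375 the dots join CCN1, CCN2, AMOTL2, ANKRD1 and TEAD4 in red and set most of them against WWTR1 and TEAD2 in blue. In WM115 they join CCN1, CCN2 and AMOTL2 in red, and TEAD1 with YAP1, CCN2 and AMOTL2. The blue dots of WM115 set TEAD2 against TEAD1 and AMOTL2.

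**Figure D5:**
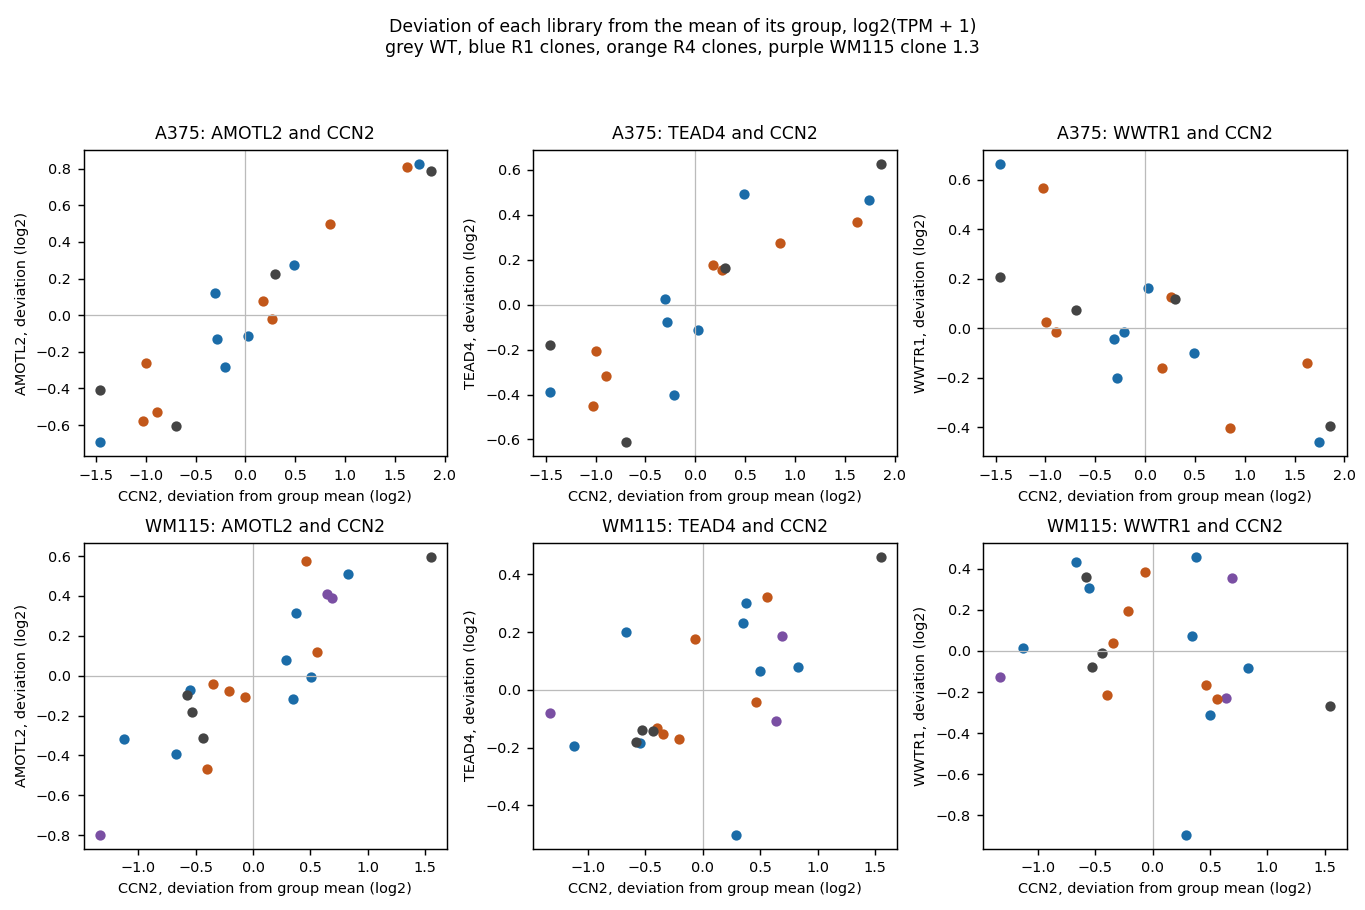
Deviation of each library from its group mean for AMOTL2, TEAD4 and WWTR1 against CCN2, in log2(TPM + 1), with A375 above and WM115 below. The A375 points lie along a rising line for AMOTL2 (r = 0.953) and a falling one for WWTR1 (r = -0.760), while the WM115 points for WWTR1 show no such line (r = -0.277).

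Other target genes of the programme were taken from a published signature of 22 YAP and TAZ targets, leaving out the 4 already described. All 18 were tested in both lines. In A375 clone 1.2, 4 rose and 0 fell (5.44% and 3.09% of all genes), with a list median of 0.43 beside 0.07 for all genes. AXL, a receptor tyrosine kinase, rose there from 114 ± 46.4 TPM (SD, n = 4) to 306 ± 49.3 TPM (SD, n = 4), a difference of 1.48 (SE 0.29, limma adjusted p 0.00401). CRIM1, a transmembrane BMP binder, rose by 1.68 (0.0123), and MYOF, a membrane repair protein, by 1.59 (0.0323). Without WT library 3 CRIM1 (0.0543) and MYOF (0.127) were not called and 2 of 18 were higher, and MYOF lost its call in 6 of 8 libraries left out. Within the libraries of low mitochondrial share AXL, CRIM1 and MYOF were not called, and in the fit by replicate number CRIM1 and MYOF were not. In the other A375 clones limma called 0 of 18, and in the paired fit of clone 4.1 it called 2 higher and 2 lower, beside 11.7% of all genes in either direction.

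In WM115 the signature genes went both ways in each R1 and R4 clone. There were 3 higher and 4 lower in clone 1.1, 2 and 1 in clone 1.2, 4 and 2 in clone 4.1, 4 and 4 in clone 4.2, and 0 and 0 in clone 1.3. Of all genes, 6.3% were higher and 15.7% lower in clone 1.1, 11.8% and 10.8% in clone 1.2, 8.59% and 15.6% in clone 4.1, and 6.71% and 13.6% in clone 4.2. The list medians were 0.16, 0.23, 0.49, 0.08 and 0.09 in these clones, beside -0.12, -0.02, -0.10, -0.10 and -0.03 for all genes. Without library 3 of clone 1.2 its counts were 2 and 0. CCDC80, a matrix protein, fell in clone 1.1 (-1.30), clone 4.1 (-1.69) and clone 4.2 (-1.24), from 24.8 ± 12.4 TPM in WT (SD, n = 4) to means of 8.81, 6.25 and 8.99 TPM. Each call held with any 1 library left out. Within the libraries of high mitochondrial share those of clones 1.1 and 4.2 were lost, and clone 4.1 has only 1 library there. In the fit by replicate number those of clones 4.1 and 4.2 were lost, and with only the 2 groups fitted that of clone 4.2. AXL rose in clone 1.1 by 1.29 (limma adjusted p 0.0269) and clone 4.2 by 1.40 (0.0366), calls that were lost in 6 of 9 and 6 of 7 libraries left out, at adjusted p-values up to 0.103 and 0.114, both without WT library 4.

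Of 26 genes of the Hippo kinase pathway and its regulators, all were tested in A375 and 25 in WM115. In A375 clone 1.2, 5 rose and 1 fell (5.44% and 3.09% of all genes). In A375 clone 4.1, 0 rose and 1 fell, where 0.515% of all genes were higher and 0.797% lower. In the paired fit of clone 4.1 the counts were 2 and 4, beside 11.7% of all genes in either direction. Limma called 0 of them in A375 clones 1.1 and 4.2 and in WM115 clone 1.3. The list median was 0.22 in clone 1.2, beside 0.07 for all genes. Without WT library 3 the clone 1.2 counts were 3 and 1. AJUBA, a LIM protein that binds the LATS kinases, rose in clone 1.2 from 9.19 ± 6.38 to 39.1 ± 15.0 TPM (SD, n = 4 for both), a difference of 2.10 (SE 0.49, limma adjusted p 0.0117). This call held with any 1 library left out, at adjusted p-values up to 0.0494. It was lost within the libraries of low mitochondrial share. In WM115 the counts were 2 higher and 2 lower in clone 1.1, beside 6.3% and 15.7% of all genes. They were 3 and 5 in clone 1.2 (1 and 0 without its library 3), beside 11.8% and 10.8%. They were 3 and 2 in clone 4.1, beside 8.59% and 15.6%, and 2 and 3 in clone 4.2, beside 6.71% and 13.6%. The list medians in these clones were -0.12, -0.12, 0.02 and -0.10, beside -0.12, -0.02, -0.10 and -0.10 for all genes. LATS2, a kinase that phosphorylates YAP and TAZ, fell in clone 4.2 from 19.6 ± 0.616 (SD, n = 4) to 7.94 ± 0.725 TPM (SD, n = 3), a difference of -1.21 (SE 0.15, adjusted p 5.92e-05). LATS2 was also called lower in clone 1.1 (-0.40, adjusted p 0.0407) and clone 1.2 (-0.43, 0.04996). Those calls were lost in 8 of 9 and 6 of 7 libraries left out. LATS2 and PTPN14 are also among the signature genes described before, so the falls of LATS2 are counted in both lists. WWC1 (KIBRA), an activator of LATS, fell in clone 4.2 from 3.19 to 0.332 TPM (-1.60) and in clone 1.1 to 0.851 TPM (-1.14). In clone 1.2 it fell to 1.53 TPM (-0.77, adjusted p 0.0412), a call lost in 5 of 7 libraries left out. In A375, WWC1 fell in clone 4.1 (-1.33, adjusted p 0.0195), a call lost in 3 of 8 libraries left out. FRMD6, an upstream scaffold protein, rose in WM115 clone 1.1 by 1.075 and in clone 4.1 by 0.97, the latter not called without library 1 of that clone (0.0598).

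Among 7 other cofactors of TEAD, 5 were tested in each line. In A375, 1 rose in clone 1.2 (5.44% of all genes). In WM115, 3 fell in clone 1.1 (15.7% of all genes), 1 rose in clone 1.2 (11.8%) and 1 fell in clone 1.3 (0.406%). VGLL3, a vestigial-like cofactor that binds TEAD, rose in A375 clone 1.2 from 0.25 ± 0.162 to 3.77 ± 0.625 TPM (SD, n = 4 for both), a difference of 1.93 (SE 0.19, limma adjusted p 5.43e-06). In WM115 clone 1.1 VGLL3 fell from 2.65 to 0.858 TPM (-0.99, adjusted p 0.0148). That call was lost with the mitochondrial set as a term and within the libraries of high mitochondrial share. The gene that fell in clone 1.3 was also VGLL3, to 0.426 TPM (-1.35, adjusted p 0.0377), a call lost in 6 of 7 libraries left out. Of 4 other CCN family genes, limma called 0 of the 2 tested in the A375 clones. In WM115, 1 of the 3 tested rose in clone 1.2 (11.8% of all genes). CCN3 and CCN5 fell in both R4 clones, where 15.6% of all genes fell in clone 4.1 and 13.6% in clone 4.2. CCN5 went from 19.4 ± 4.70 TPM in WT (SD, n = 4) to 2.95 ± 0.819 TPM in clone 4.1 (-2.36) and 0.859 ± 0.389 TPM in clone 4.2 (-3.45, SD, n = 3 for both). CCN3 went from 9.55 TPM to 2.51 TPM (-1.47) and 0.976 TPM (-2.26). The clone 4.1 calls were lost without library 1 of that clone for CCN5 (0.0699) and without library 2 for CCN3 (0.0813). Of 13 tested targets of serum response factor, which share cytoskeletal inputs with YAP, 3 rose in A375 clone 1.2 (5.44% of all genes rose), and 1 without WT library 3. In WM115, 1 fell in clone 1.1 (15.7% of all genes), and 3 rose and 2 fell in clone 1.2 (11.8% and 10.8%), or 1 and 0 without its library 3. In each R4 clone 2 rose, beside 8.59% of all genes in clone 4.1 and 6.71% in clone 4.2. VCL (vinculin) was called in A375 clone 1.2 whichever library was left out, at 0.81 (SE 0.12, adjusted p 0.000395). It was not called within the libraries of low mitochondrial share or in the fit by replicate number.

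Over the 11 group means, centred within each line, the genes whose pattern was most like that of a member among 15287 genes were named with Pearson's r, as a description. For WWTR1 it was its antisense RNA WWTR1-AS1 (r = 0.972). The strand used in counting is not given in the sources used here, so reads of this pair cannot be told apart. For TEAD2 it was TBKBP1 (0.977), for TEAD4 TAF5 (0.983), for TEAD3 H2AW (0.954), for YAP1 IGSF9B (0.955) and for TEAD1 RGMB (0.894). For CCN1 it was STC2 (0.951), for CCN2 ACOT9 (0.932) and for AMOTL2 MYO1C (0.960).

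The transcript table summed to the gene values to within 0.0006 TPM. CCN2 and ANKRD1 have 1 transcript each, CCN1-201 carried 90.2% of CCN1 in both lines and TEAD3-201 96.9% and 97.2% of TEAD3. The mix of AMOTL2 differed most between the lines. AMOTL2-201, whose first exon holds the CATTCC match of AMOTL2, made up 62.8% ± 6.90 of the gene in A375 (SD, n = 18) and 51.8% ± 5.36 in WM115 (SD, n = 21), and AMOTL2-202 29.5% ± 7.32 and 44.3% ± 5.15. WWTR1-201 held 63.1% and 67.1% of WWTR1, and YAP1 was divided over more forms, with YAP1-208 at 37.8% and 33.0% and YAP1-201 at 24.8% and 29%. No test was run on these shares.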

How the data were processed

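RNA was measured by RNA-seq in 39 libraries of 2 melanoma cell lines. The deposited tables give TPM per gene and per transcript, made by the authors. The submitters' processing notes name DRAGEN and the build GRCh38, without their role. Counting, strand and annotation are not given in the sources used here. Each table also has 6 value columns that match no sample, and these were not used. The table repeats 200 identifiers, each of which was used once, and 58453 of the 60671 identifiers had a position in GENCODE 29.

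TPM was used as deposited. A gene was tested in a line if 3 or more of its libraries reached a TPM of 1, which left 16692 genes in A375, 16997 in WM115 and 16126 for the WT lines. Tests used limma 3.58.1 (R 4.3.3) and a pseudocount of 1 before the log2 step. The fit had 1 coefficient per group of the line, empirical Bayes moderation with a variance trend, two-sided tests and Benjamini-Hochberg adjustment over all genes tested. Tests over clones used the mean log2 value of each of 8 clones and of WT, with the line as a term and clone 1.3 left out, over 15287 genes. The script was tested on simulated data. Nothing in the labels says that the libraries of a group are separate cultures, so p-values measure the spread between these libraries only. Python 3.11.15, numpy 2.4.6, scipy 1.17.1, pandas 2.3.3 and matplotlib 3.10.9 were used for the rest.

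The numbers of A375 WT and clone 4.1 libraries were taken as pairs because deviations from the group mean of libraries with the same number correlated across genes at r of 0.326 to 0.776 in all 4 pairs, above the threshold of 0.1. The pairing comes from the data, not from the labels. A375 clones 1.1 and 4.2, which were not compared, also deviated together by number, at r of 0.435 to 0.740 over 3 pairs.

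The members and the gene lists were chosen with earlier results of these data known. An immune marker is not reported here, and the immune sum leaves it out. Besides the members, up to 3 genes per list and line were chosen by the number of clones in which they were called in the same direction, with ties settled by the larger median difference, and some of them are named in the text, as is the gene most like each member. Alternatives were a pseudocount of 0.1, a filter on a mean TPM of 5 or none, quantile normalization, scaling by median-of-ratios factors, a fit without the variance trend or of only the 2 groups compared, a replicate block, the mitochondrial set as a term, a minimum log2 difference of 1 and each library left out. For the tests over clones, each clone was left out and clone 1.3 was counted with R1 or with R4. Analyses within the mitochondrial set that holds most libraries were added after the data were seen, as were the scalings of the WT lines.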

Additional observations from a re-analysis of the deposited data

Results flagged for a closer look

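Within 50 combinations of a member and a group of 4 or 5 libraries, 4 had a library set apart from the others by Dixon's criterion at the 95% level, which flags about 1 in 20 groups by chance. TEAD2 in A375 R1 clone 1.2 was lowest in library 4, at 18.348 TPM, with the others between 22.6 and 23.5 TPM. TEAD4 in WM115 WT was highest in library 3, at 42.589 TPM, with the others between 26.9 and 27.7 TPM. CCN2 was highest in the same WM115 WT library, at 62.957 TPM, with the others between 13.6 and 15.1 TPM. ANKRD1 in A375 R4 clone 4.1 was highest in library 4, at 1.534 TPM, with the others between 0 and 0.122 TPM.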

How the results depend on the processing

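Among values of single members under an alternative, 2861 kept their side of the threshold, 73 lost the call and 32 gained it. Among the 2861, 123 that were called in neither analysis changed sign, and 0 called values did. Members called in A375 clone 1.2 (2) became 0 within the libraries of low mitochondrial share. Members called between A375 clones 1.1 and 1.2 (2) became 1 with a minimum difference of 1 and 0 at low share. Those between A375 clones 4.1 and 4.2 (1) became 0 without a filter, with only the 2 groups fitted and at low share. Those in WM115 clone 1.2 (3) became 1 with the minimum difference and 0 without a filter, with only the 2 groups and at high share, and 4 with either scaling, which added TEAD3 (adjusted p 0.0379 and 0.0394). In A375 clone 1.2 quantile normalization added TEAD1 (0.0407), for 3. Those in WM115 clone 4.1 (0) became 1 without a filter, ANKRD1, and 1 with median-of-ratios scaling or quantile normalization, YAP1 in both. Those in WM115 clone 4.2 (1) became 0 with the minimum difference and 2 with either scaling. Those between WM115 clones 1.1 and 1.2 (4) became 1 with the minimum difference. There TEAD4 was not called at high share (limma adjusted p 0.0742), and AMOTL2 was called with only the 2 groups fitted (0.045). Those between WM115 clones 4.1 and 4.2 (2) became 0 with the minimum difference, 1 with quantile normalization and 0 with only the 2 groups. Without a filter TEAD2 was not called between them (limma adjusted p 0.0673). Clone 4.1 has only 1 library at high share. Those between the WT lines (3) became 1 with the minimum difference. Fits within a mitochondrial set have fewer libraries, and the cause of the other changes was not tested. With 1 library left out, the members called ranged from 1 to 3 in A375 clone 1.2 and between A375 clones 1.1 and 1.2, from 0 to 2 between A375 clones 4.1 and 4.2, and from 3 to 4 between the WT lines. They ranged from 1 to 2 in WM115 clones 1.1 and 4.2, from 0 to 4 in WM115 clone 1.2, from 4 to 5 between WM115 clones 1.1 and 1.2, and were 1 throughout between WM115 clones 4.1 and 4.2. In the remaining comparisons they were 0 throughout. The depth behind the TPM values is unknown, so no limit from depth can be given for ANKRD1 at 0.

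With the replicate number as a block, the members called numbered 5 in A375 clone 4.1, where the pairing was found in these same values. In the other comparisons the numbers were only shared, and the block gave 1 in A375 clone 1.2, and 0 between A375 clones 1.1 and 1.2, between A375 clones 4.1 and 4.2, in WM115 clones 1.2 and 4.2, between WM115 clones 1.1 and 1.2 and between WM115 clones 4.1 and 4.2. The block used only the 2 groups and the shared numbers, so fewer libraries entered.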
